A study of Homo sapiens with 6 samples.

Results

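The genes described here are 40 genes of the G2 phase and of mitosis, found in the deposited table by their gene symbols. The table holds 31853 genes, and each of the 40 was in it and had enough counts to be tested. The cells were Mon-Mac-6, an established human leukaemia line with monocytic features. They were kept for 48 h with either DMSO, the solvent control, or 500 nM WD6305, which the series title describes as a PROTAC against METTL3. A PROTAC carries its target protein to an E3 ubiquitin ligase, and METTL3 is the enzyme that writes N6-methyladenosine on messenger RNA. Each group had 3 libraries of poly(A) RNA, here named DMSO 1 to 3 and WD6305 1 to 3, all from a single cell line. Whether the replicates were grown as separate cultures is not stated, so p-values here reflect only the scatter among these libraries, which could be technical.

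A dividing cell enters mitosis when cyclin B bound to the kinase CDK1 is switched on by the CDC25 phosphatases. The chromosomes are then condensed, attached to spindle microtubules through their kinetochores, and held by the spindle checkpoint until every one is attached. The anaphase-promoting complex, a ubiquitin ligase, then marks securin and cyclin B for destruction, which lets the chromosomes part and the cell divide. Most of these genes are transcribed late in the cell cycle, driven by FOXM1 and by the MuvB complex with B-MYB, and repressed in resting cells by MuvB with an RB-like protein. Their transcript levels are therefore widely read as a sign of how many cells of a population are in G2 and mitosis.

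The libraries held between 64525948 and 71155346 estimated counts. METTL3 mRNA (chromosome 14, 21498133 to 21511342 on GRCh38, minus strand) was 70.5, 64.9 and 66.4 CPM (counts scaled to a common library size) in DMSO 1, 2 and 3 and 78.2, 76.0 and 79.7 CPM in WD6305 1, 2 and 3. It was higher with the compound, at a log2 fold change of 0.21 ± 0.05 (SE; edgeR's quasi-likelihood test, adjusted p = 0.0218). This call did not hold without DMSO 2, WD6305 1, WD6305 2 or WD6305 3 in turn (adjusted p = 0.0703, 0.0631, 0.0501 and 0.0931). The protein was not measured. All 12 monocytic markers were detected in each library. In edgeR 7 of the 12 were higher and 2 lower at an adjusted p under 0.05, against 12.2% and 11.2% of all tested genes. The 12 had a summed level of 6418 to 6885 CPM in DMSO and 10501 to 11959 CPM in WD6305. LYZ, lysozyme, made up most of that sum, at 5256 to 5755 CPM in DMSO and 9152 to 10527 CPM in WD6305, and the other 11 summed to 1129 to 1163 CPM and 1349 to 1432 CPM. Of 12 keratinocyte markers 11 were in the table and KRT2 was at 0 in each library. Their sum was 266 and 244 CPM in DMSO 1 and 2 and 216 and 223 CPM in WD6305 2 and 3, against 9.16 CPM in DMSO 3 and 7.47 CPM in WD6305 1. The 8 fibroblast markers summed to 11.5 to 14.7 CPM except in WD6305 1, at 71.6 CPM. DMSO 3 and WD6305 1 thus stand apart in the keratinocyte markers, and WD6305 1 also in the fibroblast markers. Results that depend on either library are therefore given with and without it. The part of the marker differences in those results was not tested.

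The promoters of mitotic genes carry a known pair of elements. One is the cell cycle genes homology region (CHR), either TTTGAA or the form with an A in place of the G (TTTAAA), which binds MuvB complexes. The other is the CCAAT box, which binds NF-Y. RefSeq promoter windows on GRCh38.p14, from 250 bases before to 50 bases after the annotated start, were found for 34 of the 40 genes. AURKA, BIRC5, FOXM1, TPX2, TTK and UBE2C were not matched. Below are 107 bases, from 120 to 14 bases before the start, for CDC20, PTTG1, PLK1, CCNB2 and CDCA8, which had the largest falls among matched genes with a mean FPKM of at least 5, and for CCNB1, the closest relative of CCNB2. All are on the plus strand and run 5′ to 3′. Capitals mark both CHR forms and the CCAAT box, read on either strand. Matches that overlap run together.
CDC20 chr1:43358861-43358967: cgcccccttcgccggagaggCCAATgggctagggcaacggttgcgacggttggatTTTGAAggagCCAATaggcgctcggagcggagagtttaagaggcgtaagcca
PTTG1 chr5:160421735-160421841: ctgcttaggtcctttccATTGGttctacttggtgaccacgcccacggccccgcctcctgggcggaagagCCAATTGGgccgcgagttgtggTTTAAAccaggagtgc
PLK1 chr16:23678769-23678875: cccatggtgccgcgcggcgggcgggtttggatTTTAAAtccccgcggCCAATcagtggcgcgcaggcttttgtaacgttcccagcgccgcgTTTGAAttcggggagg
CCNB2 chr15:59105026-59105132: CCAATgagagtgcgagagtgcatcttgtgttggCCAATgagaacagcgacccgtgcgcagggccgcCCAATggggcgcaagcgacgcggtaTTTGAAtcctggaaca
CDCA8 chr1:37692396-37692502: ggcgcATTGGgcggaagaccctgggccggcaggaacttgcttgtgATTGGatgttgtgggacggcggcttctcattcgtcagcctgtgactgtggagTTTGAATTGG
CCNB1 chr5:69167030-69167136: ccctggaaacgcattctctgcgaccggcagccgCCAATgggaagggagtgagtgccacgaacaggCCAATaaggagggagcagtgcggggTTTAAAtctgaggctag
Each of the 6 held a CHR-type match and at least 1 CCAAT match in the bases shown. In the cyclin B pair the CHR-type match began 30 (CCNB1) and 29 (CCNB2) bases before the start and the nearest CCAAT match 25 bases further upstream in both, with TTTAAA in one gene and TTTGAA in the other.

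Across whole 300-base windows, searched on both strands, TTTGAA was found in 26 of the 34 matched genes (76.5%), against 14.0% of 11672 tested genes with a window. TTTAAA was found in 13 of them (38.2%), against 11.1%. Either sequence was present in 31 of the 34 (91.2%), against 21.7% of the tested genes. CCAAT was present in 28 (82.4%), against 42.5%, and at least 2 CCAAT matches in 19 (55.9%), against 15.9%. A CHR-type match together with CCAAT was found in 25 (73.5%), against 8.96%. Most genes held them whether or not they passed the test. Of 11 matched genes that fell, all 11 held a CHR-type match and 10 a CCAAT, and of 23 that did not pass the test, 20 and 18 did. A CHR-type match together with CCAAT was in 10 of the 11 and in 15 of the 23. TTTAAA was in 6 of the 11 and 7 of the 23, and TTTGAA in 8 and 18. The difference between these groups was not tested. A match describes the letters of the window and is not evidence of binding.

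With WD6305, 14 of the 40 genes fell and 0 rose at an adjusted p under 0.05 in edgeR's quasi-likelihood test. Over all 18138 tested genes 11.2% were called lower and 12.2% higher, 23.4% in all. The edgeR counts by role given below are to be read beside these shares. At an unadjusted p under 0.05, 18 of the 40 were lower and 3 higher (FOXM1, ANLN and TTK), against 17.2% and 18.5% of all tested genes. DESeq2 called 14 lower and the same 3 higher (adjusted p = 0.0337, 0.0327 and 0.0364), against 16.9% and 16.5% of the genes it tested. With limma on FPKM 16 were lower and 0 higher, against 20.4% and 17.2%. The 14 were CDC20, PTTG1, UBE2C, BIRC5, PLK1, CDC25C, CCNB2, CDCA8, MAD2L1, CCNB1, PRC1, NUSAP1, KIF2C and TPX2. Their falls were small, from 1.14-fold (TPX2) to 1.71-fold (CDC20) with a median change of -18.9%. The median size of the fall was 0.30 on the log2 scale, against 0.38 for all genes called lower. The count of 14 lower and 0 higher was the same when TMM scaling was replaced by library sizes alone (12.9% and 11.0% of all tested genes) or by relative log expression factors (11.7% and 11.8%). Lower levels in bulk RNA do not separate fewer cells in G2 and mitosis from less RNA per such cell; the 2 cannot be told apart here.

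The list did not move as a block. Its median log2 fold change was -0.10, against 0.00 for all tested genes, with 27 genes below 0 and 13 above. Without DMSO 3, CENPE, NDC80, KIF23 and HMMR lay above 0 as well (log2 fold changes 0.16, 0.03, 0.05 and 0.12). No gene moved from above 0 to below it. The groups did not overlap for 22 genes: 20 had every WD6305 library below every DMSO library, against 20.3% of all tested genes, and 2, HJURP and CENPA, had every WD6305 library above, against 20.4%. The remaining 18 overlapped. The summed level of the 40 genes was 4413, 4491 and 4778 CPM in DMSO 1, 2 and 3 and 4244, 4244 and 4346 CPM in WD6305 1, 2 and 3. The sums of the groups do not overlap, but DMSO 3 lies further from the other DMSO libraries than these lie from WD6305.

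**Figure D1:**
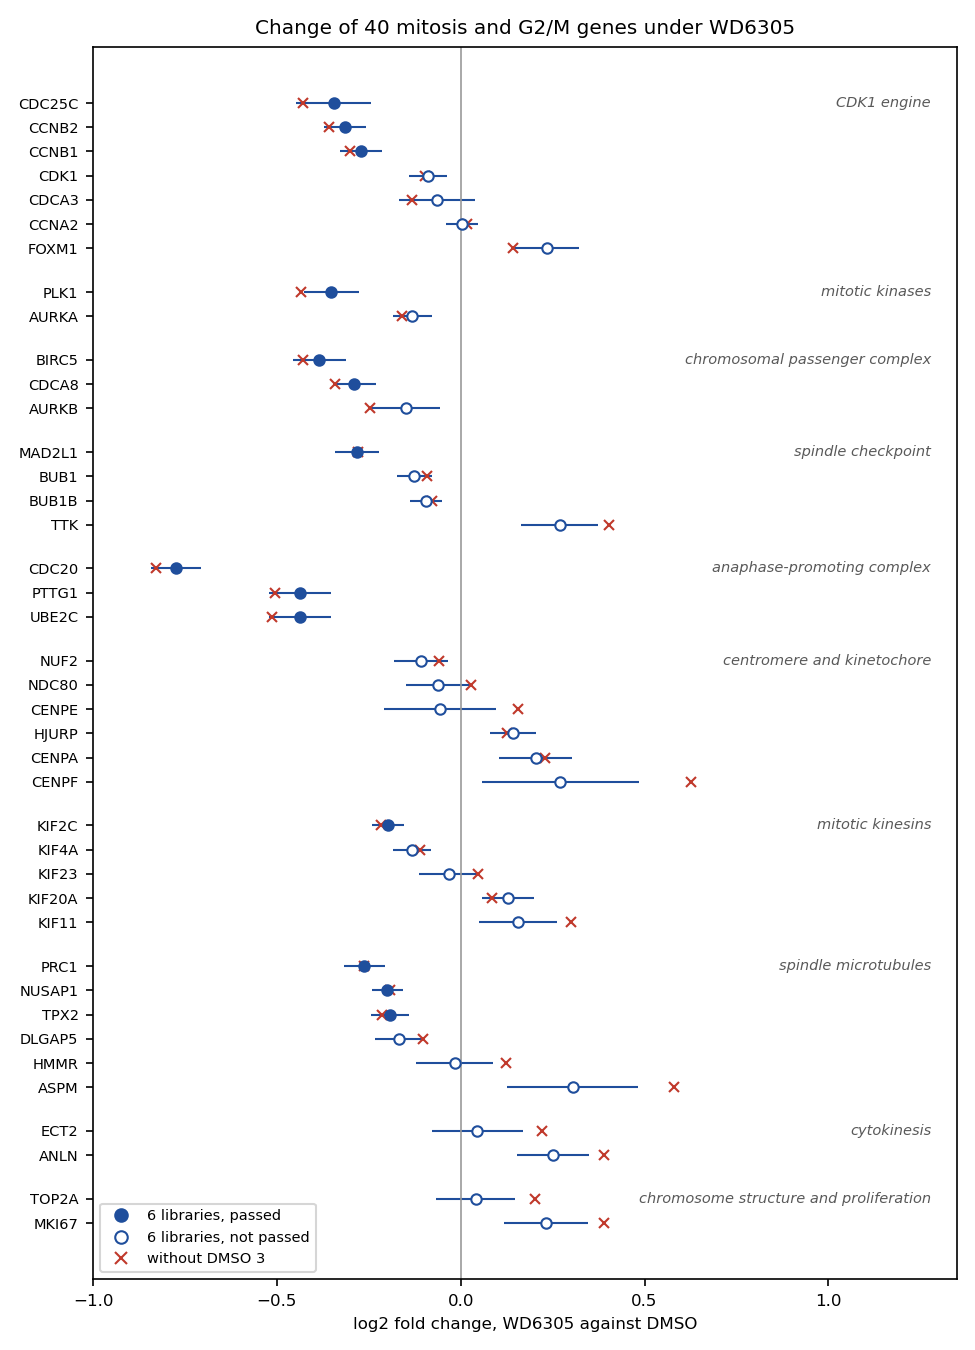
Log2 fold change of WD6305 against DMSO for the 40 genes, ordered by role, with bars of 1 SE; filled points passed the test at an adjusted p under 0.05 and open points did not, and red crosses give the value without DMSO 3. CDC20, PTTG1 and UBE2C lie furthest to the left, CDC20 at -0.77, and for CENPF and ASPM the cross lies far to the right of the point.

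CDC20, PTTG1 and UBE2C, an activator, a substrate and an enzyme partner of the anaphase-promoting complex, had the 3 lowest log2 fold changes of the 40. All 3 fell, with a median of -0.44. None is a core subunit. CDC20 (chromosome 1, 43358981 to 43363203, plus strand) activates the complex at the onset of anaphase. Its level was 274, 262 and 237 CPM in DMSO 1, 2 and 3 and 139, 158 and 155 CPM in WD6305 1, 2 and 3. The groups were far apart, with the lowest DMSO library well above the highest WD6305 library. The mean went from 258 ± 18.9 to 151 ± 9.76 CPM (SD, n = 3), a log2 fold change of -0.77 ± 0.07 (SE; edgeR, adjusted p = 0.000152). CDC20 had the largest change among the 40.

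PTTG1 is securin, the inhibitor of separase that the complex destroys. Its level was 49.1, 45.4 and 40.7 CPM in DMSO and 31.5, 33.6 and 34.7 CPM in WD6305, without overlap (log2 fold change -0.44 ± 0.08, adjusted p = 0.00623). UBE2C is the ubiquitin-conjugating enzyme that starts the chains. It was at 94.5, 95.8 and 80.3 CPM in DMSO and 61.9, 72.8 and 65.1 CPM in WD6305, again without overlap (log2 fold change -0.44 ± 0.09, adjusted p = 0.00638). For both genes DMSO 3 was the lowest DMSO library, nearest to the treated ones.

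Of the 7 genes of the CDK1 engine of mitotic entry, 3 fell and 0 rose in edgeR; at an unadjusted p under 0.05 and in DESeq2 the counts were 3 and 1, the 1 being FOXM1. Cyclin B2 (CCNB2) was at 98.6, 96.6 and 88.6 CPM in DMSO and 78.0, 76.4 and 73.7 CPM in WD6305. Cyclin B1 (CCNB1) was at 150.3, 149.8 and 141 CPM in DMSO and 113, 127 and 125 CPM in WD6305. Neither cyclin overlapped between the groups, and their log2 fold changes were close, at -0.31 ± 0.06 (CCNB2, adjusted p = 0.00428) and -0.27 ± 0.06 (CCNB1, adjusted p = 0.00882). CDC25C, a phosphatase that activates CDK1, was at 14.6, 14.8 and 12.2 CPM in DMSO and 10.8, 11.4 and 10.5 CPM in WD6305. Its fall of 0.35 on the log2 scale (SE 0.10, adjusted p = 0.0386) was the least certain of the 14. The CDC25C call did not hold without DMSO 1, DMSO 2, WD6305 1, WD6305 2 or WD6305 3 in turn, where adjusted p was 0.126, 0.14, 0.11, 0.0717 and 0.132.

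The partner kinase and the other cyclin did not pass. CDK1 itself was at 87.3, 79.7 and 81.7 CPM in DMSO and 77.8, 77.5 and 78.6 CPM in WD6305, close values that do not overlap. Its log2 fold change was -0.09, with a 95% interval of -0.21 to 0.03 (adjusted p = 0.271). Cyclin A2 (CCNA2), which partners CDK2 in S phase and CDK1 in G2, was at 157, 169.5 and 168 CPM in DMSO and 164, 165 and 166 CPM in WD6305. The treated values lie inside the DMSO range, and the interval of the log2 fold change ran from -0.10 to 0.10, which lies above that of CCNB1, -0.40 to -0.14. The difference between the changes of these 2 cyclins was not tested. CDCA3, a trigger of WEE1 destruction, was at 19.3 to 24.7 CPM in DMSO and 19.5 to 21.3 CPM in WD6305 (log2 fold change -0.06 ± 0.10). FOXM1, the transcription factor of G2/M genes, was at 85.1, 91.8 and 72.0 CPM in DMSO and 99.8, 91.5 and 101 CPM in WD6305. Its groups touched at their edges (log2 fold change 0.23 ± 0.09, adjusted p = 0.0869), and without DMSO 2 it was called higher, at 0.31 with an adjusted p of 0.0469 (8.72% of genes were called higher and 7.81% lower in that fit).

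**Figure D2:**
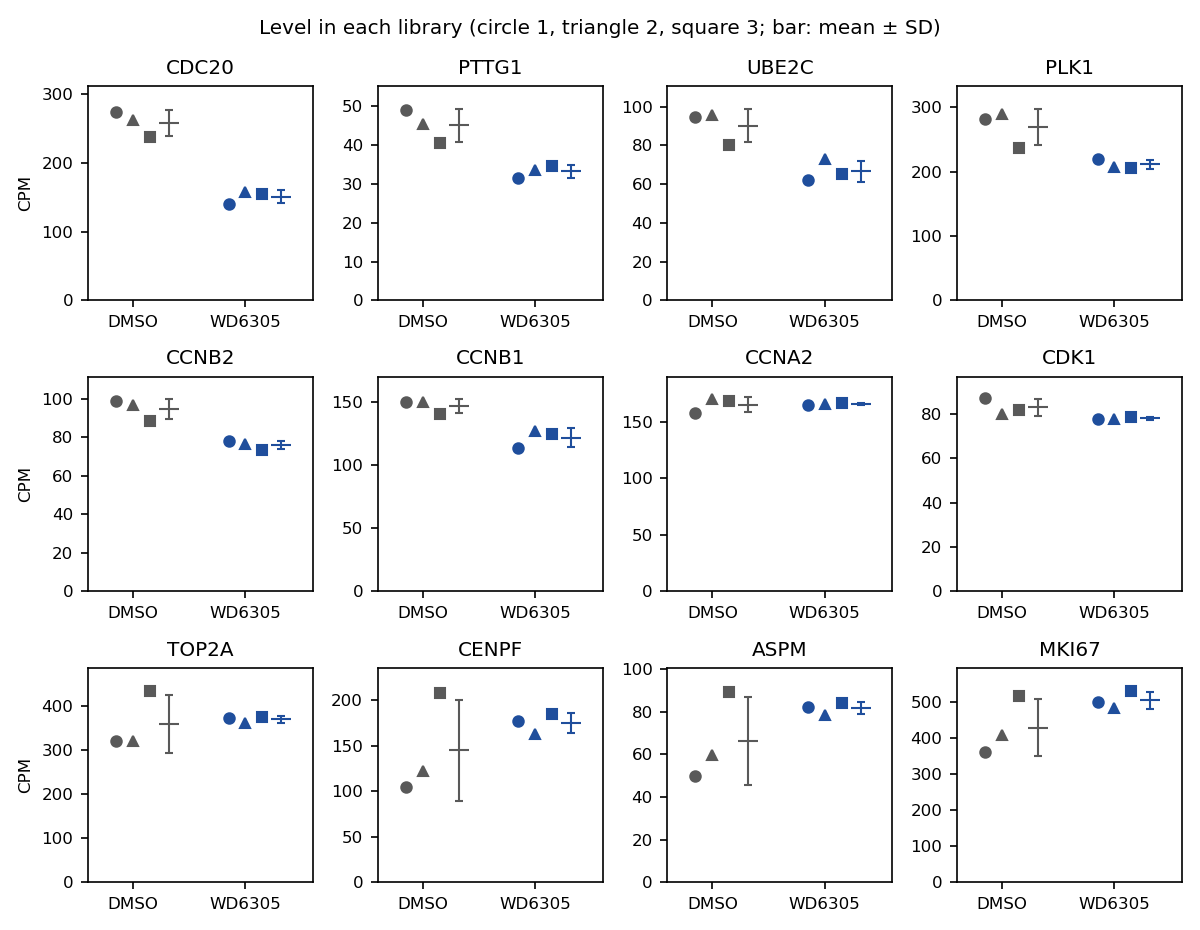
CPM of 12 genes in each of the 6 libraries, on axes that start at 0, with the mean and SD of each group. The treated points of CDC20, PTTG1, UBE2C, PLK1, CCNB2 and CCNB1 lie below every DMSO point, those of CCNA2 lie within the DMSO range, and DMSO 3 is the highest DMSO library for TOP2A, CENPF, ASPM and MKI67.

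Of the mitotic kinases PLK1 and AURKA, 1 fell. PLK1, which acts from mitotic entry to cytokinesis, was at 282, 290.1 and 237 CPM in DMSO and 219.6, 208 and 206 CPM in WD6305. The groups did not overlap, but DMSO 3 was far below the other DMSO libraries (log2 fold change -0.35 ± 0.07, adjusted p = 0.00936). AURKA, the kinase of the spindle poles, was at 113, 103 and 101 CPM in DMSO and 95.4, 98.1 and 95.7 CPM in WD6305. Its values did not overlap either and its log2 fold change of -0.13 ± 0.05 did not pass (adjusted p = 0.114); limma on FPKM called it lower (adjusted p = 0.0407).

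The chromosomal passenger complex corrects faulty attachments at the centromere, and 2 of its 3 listed genes fell. BIRC5, or survivin, was at 203, 183 and 175 CPM in DMSO and 131, 153 and 146 CPM in WD6305 (log2 fold change -0.38 ± 0.07, adjusted p = 0.00556). CDCA8, or borealin, was at 141, 140.2 and 126 CPM in DMSO and 107, 116 and 109.8 CPM in WD6305 (log2 fold change -0.29 ± 0.06, adjusted p = 0.00777). Both were without overlap. AURKB, the kinase of the complex, was at 36.2, 37.9 and 29.8 CPM in DMSO and 31.2, 31.4 and 31.1 CPM in WD6305. DMSO 3 lay below every treated library, the log2 fold change was -0.15 ± 0.09 (adjusted p = 0.302), and without DMSO 3 it was -0.25 and passed (adjusted p = 0.0263).

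Of the 4 spindle checkpoint genes 1 fell. MAD2L1, the inhibitor of CDC20, was at 109, 97.3 and 104 CPM in DMSO and 82.5, 82.5 and 89.8 CPM in WD6305, without overlap, and fell (log2 fold change -0.28 ± 0.06, adjusted p = 0.00944). BUB1, at 155 to 169 CPM in DMSO and 147 to 152 CPM in WD6305, and BUB1B, at 134 to 139 CPM against 125 to 129.8 CPM, lay slightly lower without overlap and did not pass (log2 fold changes -0.13 ± 0.05 and -0.09 ± 0.04, adjusted p = 0.0864 and 0.147). TTK, the kinase that starts the checkpoint signal, was at 41.4, 44.6 and 55.5 CPM in DMSO and 59.0, 54.5 and 57.0 CPM in WD6305. DMSO 3 lay among the treated libraries (log2 fold change 0.27 ± 0.10, adjusted p = 0.0995).

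None of the 6 genes of centromere and kinetochore was called in edgeR, DESeq2 or limma on FPKM, and 0 had an unadjusted p under 0.05. CENPA, the centromeric histone, was at 18.7, 23.8 and 22.3 CPM in DMSO and 23.9, 24.7 and 25.9 CPM in WD6305, and HJURP, its chaperone, was at 53.8 to 57.0 CPM and 57.2 to 63.4 CPM. These 2 were the genes whose treated libraries lay above every DMSO library, by log2 fold changes of 0.20 ± 0.10 and 0.14 ± 0.06. NDC80 and NUF2, of the complex that binds microtubules, had log2 fold changes of -0.06 ± 0.09 and -0.11 ± 0.07. CENPE, a kinetochore kinesin, was at 26.9, 30.8 and 42.6 CPM in DMSO and 33.7, 29.8 and 32.8 CPM in WD6305. CENPF, a large kinetochore protein of G2 cells (chromosome 1, 214603195 to 214664571, plus strand), was at 105, 122 and 208 CPM in DMSO and 177, 163 and 185 CPM in WD6305. For CENPE and CENPF, DMSO 3 was the highest of the 6 libraries, and the CENPF change of 0.27 had an SE of 0.21, the widest among the 40.

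Of the 5 mitotic kinesins 1 fell. KIF2C, which takes microtubules apart at faulty attachments, was at 139, 145 and 136 CPM in DMSO and 121, 124 and 121 CPM in WD6305 (log2 fold change -0.20 ± 0.04, adjusted p = 0.0122). The KIF2C call did not hold without WD6305 3, at an adjusted p of 0.0648. KIF4A, of the spindle midzone, was at 79.7 to 84.2 CPM and 71.4 to 76.3 CPM, without overlap (log2 fold change -0.13 ± 0.05, adjusted p = 0.101), and limma on FPKM called it lower (adjusted p = 0.048). KIF11, which pushes the spindle poles apart, was at 79.6, 83.5 and 107 CPM in DMSO and 99.0, 95.6 and 107 CPM in WD6305. DMSO 3 again matched the treated libraries (log2 fold change 0.16 ± 0.11). KIF20A and KIF23, both motors of the midzone, had log2 fold changes of 0.13 ± 0.07 and -0.03 ± 0.08.

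Of 6 genes of the spindle microtubules 3 fell. PRC1, which bundles midzone microtubules, was at 134, 142 and 138 CPM in DMSO and 107, 121 and 117 CPM in WD6305 (log2 fold change -0.26 ± 0.06, adjusted p = 0.00936). NUSAP1 was at 141, 139.8 and 142 CPM in DMSO and 121, 120.3 and 127 CPM in WD6305 (log2 fold change -0.20 ± 0.04, adjusted p = 0.0105). TPX2, the activator of AURKA on the spindle, was at 208, 224 and 206 CPM in DMSO and 196, 184 and 179.6 CPM in WD6305 (log2 fold change -0.19 ± 0.05, adjusted p = 0.0276). The groups were apart in all 3, by the narrowest margin in TPX2, whose call did not hold without DMSO 2, WD6305 2 or WD6305 3 (adjusted p = 0.1, 0.0928 and 0.125). DLGAP5 was at 71.3 to 83.3 CPM and 66.8 to 68.6 CPM, without overlap, and did not pass (log2 fold change -0.17 ± 0.07, adjusted p = 0.101). HMMR was at 49.5, 51.4 and 65.7 CPM in DMSO and 54.5, 53.5 and 56.7 CPM in WD6305 (log2 fold change -0.02 ± 0.10). ASPM, a large protein of the spindle poles, was at 49.7, 59.5 and 89.2 CPM in DMSO and 82.3, 78.7 and 84.0 CPM in WD6305. DMSO 3 was the highest of the 6 libraries for both, and the ASPM change of 0.30 ± 0.18 did not pass (adjusted p = 0.266).

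Neither of the 2 cytokinesis genes and neither of the 2 genes of chromosome structure and proliferation passed in edgeR. At an unadjusted p under 0.05 and in DESeq2, 1 of the 4, ANLN, was higher, and limma on FPKM called 0. ANLN, or anillin, which organises the contractile ring, was at 82.8, 83.7 and 108 CPM in DMSO and 112, 108 and 107 CPM in WD6305. ECT2, which switches on RhoA for the ring, was at 45.9, 46.0 and 63.8 CPM in DMSO and 56.2, 52.7 and 51.6 CPM in WD6305. TOP2A, which untangles sister chromosomes, was at 322, 322 and 436 CPM in DMSO and 373, 362 and 376 CPM in WD6305. In all 3 the treated libraries lay above DMSO 1 and 2, and DMSO 3 lay among them or above them. MKI67, the proliferation marker Ki-67 that coats mitotic chromosomes, was at 362, 409.8 and 519 CPM in DMSO and 501, 484 and 533 CPM in WD6305. Its log2 fold change was 0.23 ± 0.11 (adjusted p = 0.183), and DMSO 3 lay among the treated libraries.

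A single control library decided the edgeR call for 8 of these genes. Without DMSO 3, edgeR called CENPF, ASPM, TTK, MKI67, ANLN, KIF11, ECT2 and TOP2A higher, against 13.6% of the genes tested in that fit. The log2 fold changes were then 0.63 for CENPF (adjusted p = 0.00106), 0.58 for ASPM (adjusted p = 0.00175), 0.40 for TTK (adjusted p = 0.00387), 0.39 for MKI67 (adjusted p = 0.00368) and 0.39 for ANLN (adjusted p = 0.000902). KIF11 was at 0.30 (adjusted p = 0.00838), ECT2 at 0.22 (adjusted p = 0.0399) and TOP2A at 0.20 (adjusted p = 0.0077). The falls moved little: 15 genes were lower, the 14 and AURKB, against 11.0% of the genes tested. With DMSO 3 and WD6305 1 both left out, 14 were lower and 7 higher, all of the 8 but ECT2, against 9.89% and 12.4%. With all 6 libraries and a term for those 2, 15 were lower, with BUB1 added (adjusted p = 0.0453), and 2 higher, ANLN and TTK (adjusted p = 0.0195 and 0.0246), against 13.0% and 14.4%. The lower calls thus held with and without DMSO 3, and in edgeR the higher calls among these 8 appeared only in the fits that left it out or gave it a term.

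The 8 genes have long transcripts. Their longest coding transcripts in GENCODE v29 ran from 3725 to 12678 nt, with a median of 5309 nt. The 14 genes that fell had a median of 2439 nt and the 26 that did not pass a median of 3531.5 nt. DMSO 3 was the highest DMSO library for 18 of the 40 genes, the lowest for 17 and between the others for 5. Across the 40 genes, transcript length and the log2 difference of DMSO 3 from the mean of DMSO 1 and 2 had a Spearman rho of 0.70. CENPF (10307 nt) differed by 0.88, ASPM (10887 nt) by 0.71 and CENPE (8612 nt) by 0.56, while UBE2C (914 nt) differed by -0.24 and AURKB (1254 nt) by -0.31. Some genes departed from this order: CENPA (1452 nt) differed by 0.08, NDC80 (2172 nt) by 0.25 and FOXM1 (3487 nt) by -0.29. MAD2L1 (5468 nt) and PRC1 (4087 nt), both among the 14 that fell, differed by only 0.01 and -0.003. Length and the log2 fold change of WD6305 had a rho of 0.59. These are descriptions over genes of the same libraries, which are not independent replicates.

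**Figure D3:**
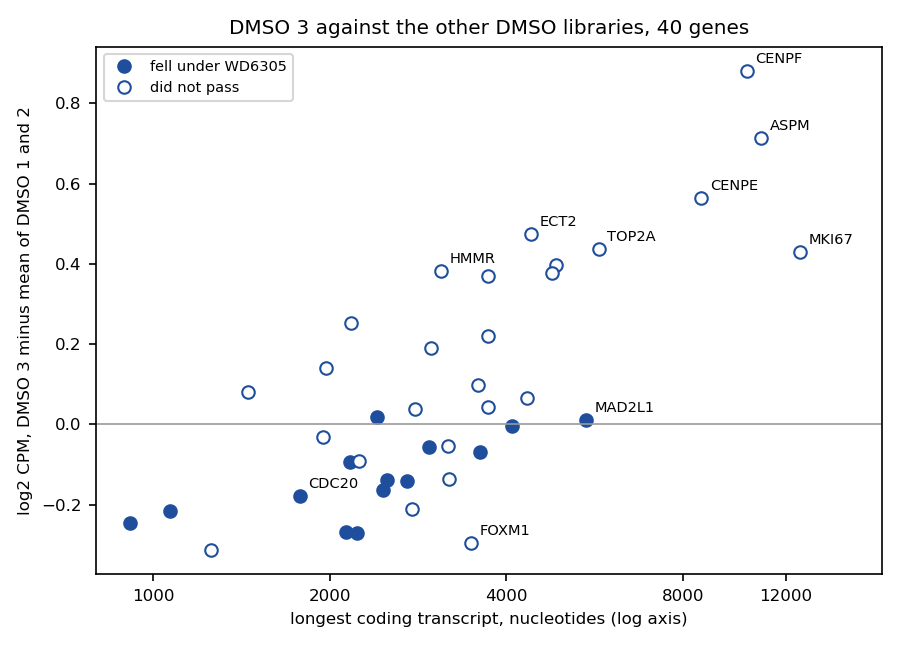
For each of the 40 genes, the length of its longest coding transcript (nt, log axis) against the log2 difference of CPM in DMSO 3 from the mean of DMSO 1 and 2. UBE2C, AURKB and PTTG1, with short transcripts, lie below 0, and CENPF, ASPM and CENPE, with long ones, lie above it. The split is not clean: CENPA (1452 nt) and NDC80 (2172 nt) lie above 0 and FOXM1 (3487 nt) lies below it.

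The same tilt with length was weaker over all genes. Over 13317 tested protein-coding genes with a length, rho was 0.25 for the DMSO 3 difference and 0.07 for the log2 fold change of WD6305. The 690 genes with a transcript over 8000 nt had a median log2 difference from the mean of DMSO 1 and 2 of -0.04, 0.04 and 0.13 in DMSO 1, 2 and 3 and of 0.14, 0.11 and 0.14 in WD6305 1, 2 and 3. The 2168 genes under 2000 nt had medians of 0.04, -0.04 and -0.08 in DMSO 1, 2 and 3 and of -0.11, -0.06 and -0.07 in WD6305 1, 2 and 3. In both of these length classes DMSO 3 lay within the range of the treated libraries. In the classes between them it lay below that range. The 3779 genes of 2000 to 4000 nt had medians of -0.037 in DMSO 3 and -0.014, -0.010 and -0.020 in WD6305 1, 2 and 3. For the 3013 genes of 4000 to 8000 nt these were 0.041 in DMSO 3 and 0.066, 0.053 and 0.056 in WD6305 1, 2 and 3. For the short transcripts DMSO 2 lay between DMSO 1 and the treated range, close to WD6305 2. The part of length in the changes of the 40 genes was not tested.

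Levels between genes are compared in FPKM, which is per transcript length. In DMSO the 40 genes ran from 3.21 ± 0.830 FPKM (CENPE) to 122 ± 7.20 FPKM (CDC20; SD, n = 3). The median tested gene was at 2.04 FPKM, so these genes were well expressed. CDC20 was clear of UBE2C, the next at 66.7 ± 5.51 FPKM. CCNB1 (57.5 ± 1.32), CCNA2 (57.1 ± 2.86), TPX2 (56.2 ± 2.41), PLK1 (53.8 ± 5.05), TOP2A (53.8 ± 10.7) and CDCA8 (53.6 ± 2.72 FPKM) followed, and neighbours in that run did not differ beyond their spread. In WD6305, CDC20 was at 70.1 ± 4.67 FPKM and CCNA2 at 56.3 ± 0.323 FPKM, ahead of CCNB1 at 46.9 ± 2.92 FPKM. So CCNA2 and CCNB1, level in DMSO, stood apart with the compound by more than their spread. The 14 genes that fell had a median of 41.9 FPKM in DMSO against 14.6 FPKM for the other 26, and a median SE of the log2 fold change of 0.06 against 0.09.

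A further 130 genes of mitosis and its control were tested, and 29 fell and 12 rose, with a median log2 fold change of -0.06 against 0.00 for all tested genes, of which 11.2% were called lower and 12.2% higher. Of these 41 genes, 16 kept their call with each library left out in turn, 11 of the 29 lower and 5 of the 12 higher; the genes described next are among these 16, and were chosen for that after their values were seen. Without DMSO 3 the counts were 28 lower and 27 higher, against 11.0% and 13.6% of the genes tested in that fit. Without DMSO 1 they were 21 and 6 (8.17% and 9.28% of all genes), and without DMSO 2 they were 23 and 6 (7.81% and 8.72%). Without WD6305 1 they were 18 and 5 (7.68% and 8.65%), without WD6305 2 they were 21 and 8 (8.15% and 8.51%) and without WD6305 3 they were 18 and 5 (6.92% and 7.64%). The shares over all genes were lower too in the fits with fewer calls.

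In the anaphase-promoting complex and its partners, 4 of 17 fell and 2 rose, and the counts were the same without DMSO 3. Their median log2 fold change was -0.06. Over all tested genes 11.2% were called lower and 12.2% higher, and 11.0% and 13.6% without DMSO 3. UBE2S, which lengthens the ubiquitin chains that UBE2C begins, was at 233, 274 and 273 CPM in DMSO and 168, 173 and 182 CPM in WD6305, well apart (log2 fold change -0.58 ± 0.07, adjusted p = 0.00058). ANAPC1, the largest scaffold subunit, fell by 0.35 on the log2 scale (adjusted p = 0.001). Of 20 condensin and cohesin genes 4 fell and 0 rose in edgeR, with 2 higher at an unadjusted p under 0.05 and 0 higher in DESeq2 and in limma on FPKM. Without DMSO 3 this balance turned, to 3 lower and 7 higher. The condensin II subunit NCAPD3 and the condensin I subunit NCAPD2 fell by 0.31 and 0.26, and separase, ESPL1, by 0.38 (adjusted p = 0.00174, 0.00306 and 0.00526). Separase is the protease that securin holds back, so transcripts of both the enzyme and its inhibitor PTTG1 were lower.

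Of 30 other kinetochore genes 6 fell and 3 rose, and without DMSO 3 the counts were 5 and 5. NSL1, of the MIS12 complex, was 0.39 higher on the log2 scale (adjusted p = 0.00358) and MAD1L1, the checkpoint partner of MAD2L1, fell by 0.38 (adjusted p = 0.0064). Of 22 other kinesins and spindle proteins 3 fell and 3 rose, against 4 and 6 without DMSO 3. The shares of all tested genes were 11.2% lower and 12.2% higher, and 11.0% and 13.6% without DMSO 3. PLK4, the kinase of centriole duplication, was at 45.3, 47.0 and 55.2 CPM in DMSO and 65.6, 67.5 and 68.4 CPM in WD6305 (log2 fold change 0.45 ± 0.08, adjusted p = 0.00428). CKAP2, a microtubule protein of the spindle, rose by 0.47 (adjusted p = 0.0111).

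Of 16 kinases and phosphatases of mitotic entry and exit 6 fell and 2 rose, and without DMSO 3 they numbered 6 and 3. PBK, a mitotic kinase, was at 17.4, 14.6 and 16.6 CPM in DMSO and 9.21, 9.13 and 10.1 CPM in WD6305, apart by a wide margin (log2 fold change -0.77 ± 0.10, adjusted p = 0.00083). CDC25B, a sister phosphatase of CDC25C, and PPP2R2A, a regulatory subunit of the PP2A phosphatase, fell by 0.39 and 0.28 (adjusted p = 0.00599 and 0.0066). Of 25 MuvB, E2F and RB regulators 6 fell and 2 rose, against 6 and 4 without DMSO 3. For both roles the shares of all tested genes were 11.2% lower and 12.2% higher, and 11.0% and 13.6% without DMSO 3. CDKN1A, the p21 inhibitor of cyclin-dependent kinases, was at 14.8, 16.6 and 13.6 CPM in DMSO and 6.99, 9.01 and 9.27 CPM in WD6305 (log2 fold change -0.83 ± 0.13, adjusted p = 0.0024). The groups did not overlap. E2F8, a repressor of the E2F family, and RBL2, the p130 protein that represses CHR genes with MuvB, rose by 0.45 and 0.35 (adjusted p = 0.00265 and 0.00768).

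**Figure D4:**
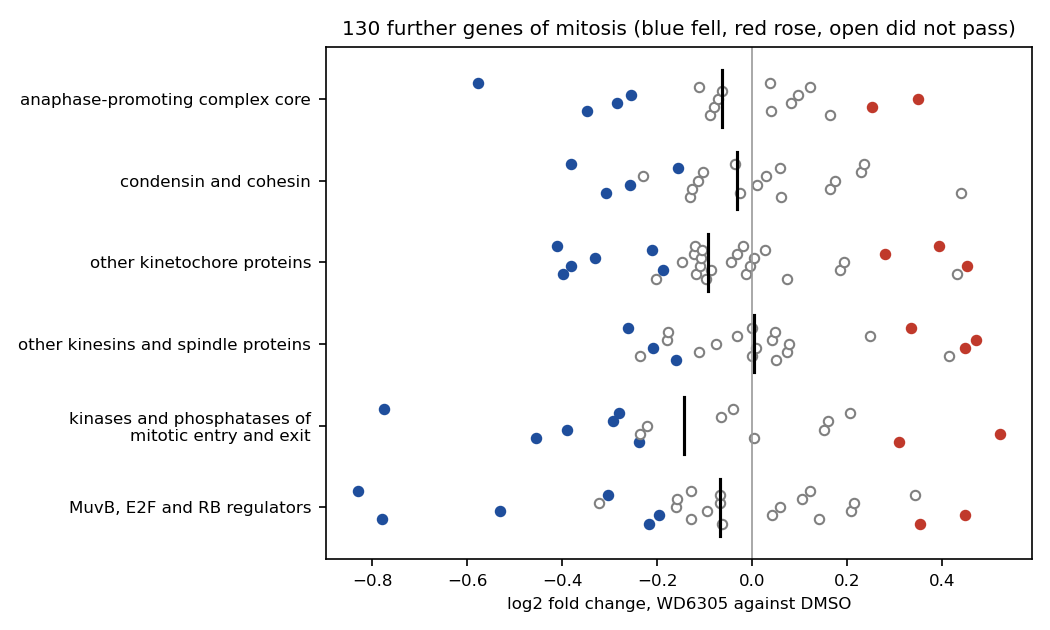
Log2 fold change of WD6305 against DMSO for the 130 further mitotic genes by role, with the median of each role as a black bar. The medians lie close to 0, and CDKN1A (-0.83) and PBK (-0.77) are among the lowest points.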

How the data were processed

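Poly(A) RNA of 6 Mon-Mac-6 libraries was compared, 3 per group. The deposited table gives estimated counts per gene and FPKM, which the authors scaled by transcript length and depth. The submitters' processing notes name GRCh38 and the tools fastp, HISAT2, StringTie and edgeR, without versions; settings and strand use are absent from the sources used here. These counts are whole numbers. More genes per library were at 4 (1071 to 1176) than at 3 (553 to 636) or 5 (357 to 380). The counts may therefore overstate fragments.

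Genes were filtered with filterByExpr, scaled with TMM (factors 0.987 to 1.02) and tested with edgeR 4.0.16 (R 4.3.3, quasi-likelihood, two-sided, no replicate block), adjusted by Benjamini-Hochberg over 18138 genes at 0.05. The SE comes from the F value, and CPM is relative to the scaled library size. DESeq2 1.42.0 and limma 3.58.1 with trend on log2(FPKM + 1), for genes at 1 FPKM or more in 3 libraries, were alternatives, as were other scalings and filters, a replicate block and leaving out libraries. On simulated data for this comparison (17937 genes run), edgeR recovered 24 of 88 genes changed by 0.5 on the log2 scale and 67 of 109 changed by 1, and called 1 of 17740 unchanged genes. No simulated library was made to stand apart from its group, as some libraries do in the real data. The number of unchanged genes called therefore does not carry over to the real data.

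The 40 genes, the 130 further genes and the markers were chosen with earlier results of these data known. Any of the 40 could be named; of the 130, those with the 5 smallest adjusted p per role, and of the promoters at most 6. Some genes that met this rule are not reported here. Lengths are those of the longest coding transcript. Promoter sequences are from RefSeq (GRCh38.p14).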

Additional observations from a re-analysis of the deposited data

How the results depend on the processing

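The same-numbered libraries did not deviate together (correlations of -0.21, 0.05 and -0.12), so the numbers were not taken as pairs. With the replicate block 12 of the 40 genes were lower, without CDC25C and TPX2 (adjusted p = 0.0523 and 0.0573), and 0 higher (8.09% and 9.57% of all tested genes), and 18 of the 130 further genes were lower. Of the 14 genes, 11 kept their call in all 18 alternatives; CDC25C and TPX2 also lost it with no filter on low counts (adjusted p = 0.0761 and 0.065), and CDC25C with limma on genes with any FPKM above 0 (adjusted p = 0.0604). Leaving out 1 library gave 11 to 15 genes lower and 0 to 8 higher; for the further genes 18 to 28 and 5 to 27, and for all tested genes 1310 to 2077 and 1446 to 2563. Higher calls among the 40 numbered 3 in DESeq2, 7 without DMSO 3 and WD6305 1, and 2 with a term for them; among the further genes the last 2 fits gave 24 and 20. With limma on any FPKM above 0, 5 further genes and 1368 of all tested genes were higher. CKAP2 lost its call there (adjusted p = 0.0781). The cause of these shifts was not tested. The median log2 fold change of the 40 lay between -0.13 and -0.08, and each of the 14 stayed below 0 in every alternative. TOP2A and ECT2, called higher without DMSO 3, were below 0 and not called without DMSO 1 (log2 fold changes -0.03 and -0.04) or DMSO 2 (-0.04 and -0.04). In simulated data few changes of 0.5 on the log2 scale were recovered, but those genes were drawn at random from well and weakly expressed genes. Among the 40, the genes that did not pass had a median SE of 0.09, against 0.13 for all tested genes. The simulated share therefore does not describe them. A gene that did not pass may still differ, by an amount inside its 95% interval.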
